A study of Homo sapiens with 12 samples.

Results

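The interferon response and MHC class I genes described here are 45 genes, listed by symbol in the deposited expression table, which holds 21574 features. The list was chosen with earlier results of these data known. Shares of members set beside shares of all features may therefore not be independent of these values. All 45 were present once each, and 44 passed the filter on low values. The exception was MX2, an antiviral GTPase. The cells were MDA-231-LM2, a lung-metastatic derivative of MDA-MB-231, which is an established line of human breast cancer. RNA was sequenced from 12 libraries in 4 groups of 3, named TMEM216+IGF1, TMEM216, Ctrl+IGF1 and Ctrl. The first part of a name is the cell population and the second says whether IGF1, a growth factor that activates the receptor IGF1R, was added. The series title asks how TMEM216, a transmembrane protein found at the base of cilia, acts on the transcriptome. The labels do not say how TMEM216 was altered, whether a population was 1 clone, or the dose and duration of IGF1. They do not say that replicates were separate cultures, so p-values measure only how far these libraries differ from each other, and that spread may be technical.

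Type I interferons signal through JAK kinases to a complex that holds STAT2 and IRF9 and binds a promoter element called the interferon-stimulated response element (ISRE). Interferon gamma acts through a different element called GAS, and induces IRF1. The induced genes block viruses at many steps, and a subset of them makes, loads and displays peptides on MHC class I molecules, which T cells and NK cells read. Tumour cells can hold such genes at a constant level without added interferon.

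Levels are in TPM, a length-scaled share of all transcripts. TPM keeps no read counts, and library depth is therefore unknown. TMEM216 transcript averaged 219 ± 29.2 TPM in the 6 TMEM216 libraries and 26.8 ± 2.68 TPM in the 6 Ctrl libraries (SD). Correlations between libraries ranged from 0.977 to 0.990. Along principal component 1 (22% of variance), TMEM216 replicate 1 and Ctrl+IGF1 replicate 3 scored lowest. Each of them was also the lowest library for 11 of the 45 members, so several results are also given without both. Of 10 markers of the line and of mesenchymal or epithelial state, 8 reached 1 TPM. Of 10 leukocyte markers 1 did, and CD3E and MS4A1 were listed at 0 in every library. The summed leukocyte markers ranged from 5.24 to 7.28 TPM in TMEM216 libraries and from 6.07 to 8.35 TPM in Ctrl libraries. Of 10 macrophage and dendritic cell markers 3 reached 1 TPM. Their sum ranged from 143 to 208 TPM in TMEM216 libraries and from 172 to 216 TPM in Ctrl libraries.

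Promoter sequence shows which members carry the element that the STAT2 and IRF9 complex recognises. In RefSeq promoter windows of build GRCh38.p14, from 250 bases before to 50 after a start, both strands were searched for the ISRE letters, GAAA and GAAA with any 2 bases between them, and for the GAS letters, TTCNNNGAA. The table held 36 of the 45 members. ISRE letters were found in 24 of these 36 members, in 59.6% of member windows, against 3.57% of all 35116 windows. GAS letters were found in 10 of the 36 members, in 23.4% of member windows, against 7.66% of all windows. A match is a description of letters and not evidence of binding.

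The upstream sequence of TAP1 is shown because TAP1 had the most negative log2 fold change, TMEM216 over Ctrl, among the members. It is chr6:32853705-32853954 on the minus strand, 5′ to 3′. Capitals mark a pair of overlapping ISRE matches on the opposite strand, which begin 134 and 128 bases before the start. A second TAP1 window, with upstream bases chr6:32852762-32853011, holds no ISRE match and is not shown.
TAP1: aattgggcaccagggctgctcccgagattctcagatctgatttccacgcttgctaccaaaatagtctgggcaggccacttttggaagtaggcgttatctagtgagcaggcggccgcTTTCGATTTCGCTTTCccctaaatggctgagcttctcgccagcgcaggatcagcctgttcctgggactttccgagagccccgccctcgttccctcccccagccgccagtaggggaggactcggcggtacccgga

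Shorter stretches compare the element in other members of the antigen presentation arm with the element in classical antiviral members. Each is read 5′ to 3′ on its gene's strand with 1 match in capitals, read as such or as its reverse complement. The antigen presentation genes are TAP2 (chr6:32838768-32838817, minus), TAPBP (chr6:33314079-33314118, minus) and B2M (chr15:44711353-44711402, plus). The antiviral genes are BST2 (chr19:17405731-17405780, minus), IFI6 (chr1:27672319-27672368, minus), ISG15 (chr1:1013370-1013419, plus), IFIT1 (chr10:89392487-89392536, plus), IFI44 (chr1:78649751-78649800, plus) and IFIH1 (chr2:162318685-162318725, minus).
TAP2: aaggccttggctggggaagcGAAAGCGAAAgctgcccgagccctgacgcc
TAPBP: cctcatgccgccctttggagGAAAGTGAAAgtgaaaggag
B2M: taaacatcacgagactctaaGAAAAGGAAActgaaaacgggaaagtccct
BST2: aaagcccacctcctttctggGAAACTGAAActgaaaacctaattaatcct
IFI6: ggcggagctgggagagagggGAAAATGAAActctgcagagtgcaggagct
ISG15: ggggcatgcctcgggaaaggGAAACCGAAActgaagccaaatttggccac
IFIT1: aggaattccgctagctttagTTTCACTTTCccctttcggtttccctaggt
IFI44: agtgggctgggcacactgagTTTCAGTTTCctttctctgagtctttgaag
IFIH1: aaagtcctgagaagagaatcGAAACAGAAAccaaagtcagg
The TAPBP, B2M, BST2, IFI6, ISG15, IFIT1 and IFIH1 windows each hold at least 1 further match, and in several of them the matches overlap.

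The members were spread over about 3 orders of magnitude, and the class I light chain dominated. B2M, the invariant chain of every class I molecule, averaged 1207 TPM over the 12 libraries. HLA-E, a class I chain read by NK cells, averaged 220.6 TPM, and ISG15, a ubiquitin-like modifier, averaged 211.5 TPM. Next came the class I heavy chain HLA-B at 147.5 TPM, IFI44 at 116 TPM and IFI16, a DNA sensor, at 114.3 TPM. The RNA-binding protein IFIT3 followed at 99.67 TPM, the peptide-loading chaperone TAPBP at 90.38 TPM, the heavy chain HLA-C at 79.44 TPM and the peptide transporter subunit TAP2 at 75.26 TPM. The ranges over the 12 libraries of neighbours in this order overlapped, except those of B2M and HLA-E. At the other end, IFI44L, TRIM22 and OAS1 averaged 1.14, 1.12 and 0.977 TPM. MX2 ranged from 0.368 to 1.31 TPM and reached 1 TPM in 2 libraries. HLA, IFIT, OAS and GBP genes have close paralogs, so reads may be split between family members and their levels are uncertain to that extent.

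**Figure D1:**
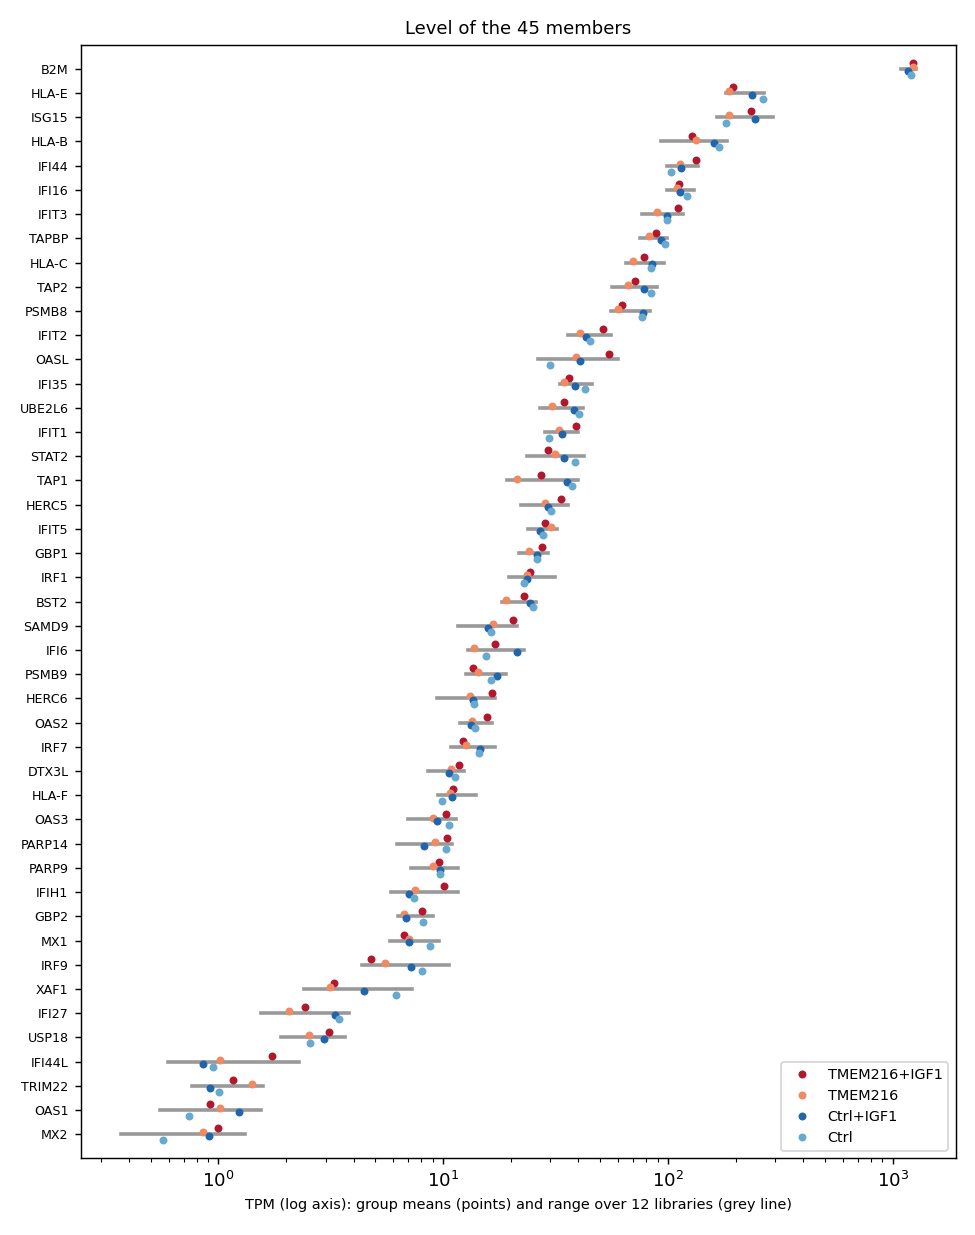
Level of the 45 members in TPM on a log axis, ordered by the mean over 12 libraries. Points are group means of 3 libraries and the grey line is the range over all 12; B2M lies at the top near 1207 TPM and MX2 at the bottom.

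Averaged over IGF1, the TMEM216 libraries had less TAP1, HLA-E and PSMB8, genes of class I presentation, and more OASL, an antiviral gene. Of the 44 tested members, 7 (15.9%) passed the threshold, against 5.22% of all features. The threshold was an adjusted p under 0.05 from limma with Benjamini-Hochberg adjustment over 13071 features. TAP1, HLA-E, PSMB8, IRF9, XAF1 and BST2 fell (13.6% of members), where 3.21% of all features did. OASL rose (2.27% of members), where 2% of all features did. At an unadjusted p under 0.05 there were 20 members (45.5%), against 20.1% of all features. Of these, 4 were higher (9.09% of members, 8.93% of all features) and 16 lower (36.4% of members, 11.1% of all features). Fitted values were above 0 for 19 members (43.2%), against 49.9% of all features. The median log2 fold change of the members was -0.03, and that of all features was -0.00054. Without both low-scoring libraries they were -0.05 and -0.02, and 8 members passed. Fold changes are differences of log2(TPM + 1) and understate the change of low genes. The 6 TMEM216 libraries lay below all 6 Ctrl libraries for 7 members (15.9%), against 2.42% of all features, and above them for 0 members, against 1.97%. The 7 were HLA-E, TAP1, PSMB8, PSMB9, TAPBP, UBE2L6 and IRF9. Leaving out Ctrl replicate 3, Ctrl+IGF1 replicate 2, TMEM216 replicate 2 or TMEM216+IGF1 replicate 1 left 4 members past the threshold.

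**Figure D2:**
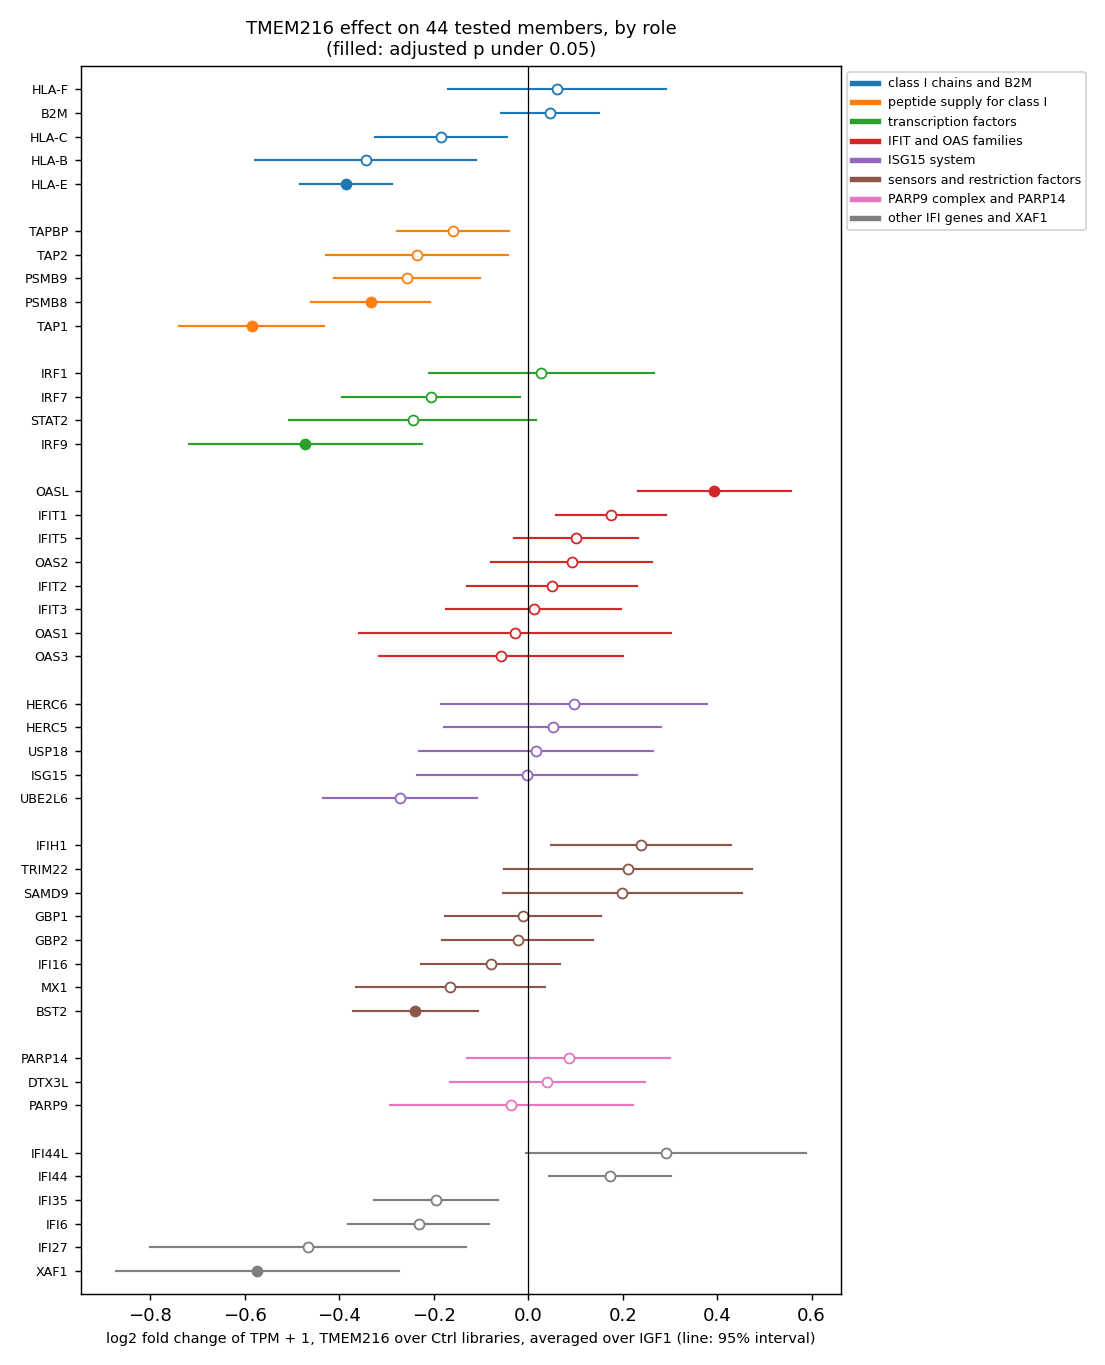
Log2 fold change of TPM + 1 of the 44 tested members, TMEM216 over Ctrl libraries averaged over IGF1, with 95% intervals, grouped by role. Filled points passed the adjusted threshold; all 5 peptide supply genes lie left of 0, from -0.59 for TAP1 to -0.16 for TAPBP, and OASL is the only filled point to the right.

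All 5 genes that supply peptide to class I had fitted values below 0, and 2 of them fell. Of all features 50.1% were below 0 and 3.21% fell. TAP1 forms with TAP2 the transporter that carries peptides into the endoplasmic reticulum. TAP1 had 26.6, 25.9 and 28.9 TPM in TMEM216+IGF1 libraries and 19.2, 23.5 and 20.9 TPM in TMEM216 libraries. It had 35.4, 39.2 and 31.8 TPM in Ctrl+IGF1 libraries and 35.6, 37.4 and 39.9 TPM in Ctrl libraries. Every TMEM216 library lay below every Ctrl library. TAP1 fell, with a log2 fold change of -0.59 and a standard error of 0.07 (adjusted p = 0.000733). In such bulk RNA, fewer cells with a transcript and less of it per cell cannot be told apart. PSMB8, a catalytic subunit of the immunoproteasome, had 63.4, 64.2 and 59.2 TPM in TMEM216+IGF1 libraries and 66.5, 57.0 and 56.1 TPM in TMEM216 libraries. It had 83.3, 75.4 and 74.6 TPM in Ctrl+IGF1 libraries and 79.5, 76.1 and 73.8 TPM in Ctrl libraries. Again the populations did not overlap, and PSMB8 fell by 0.33 ± 0.06 on the log2 scale (SE, adjusted p = 0.00633). TAP1 and PSMB8 kept their calls in all 20 alternatives run.

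The other 3 peptide supply genes did not pass. PSMB9, a further immunoproteasome subunit, had a median of 14.1 TPM and a range of 12.6 to 15.2 TPM in TMEM216 libraries, against a median of 16.7 TPM and a range of 15.4 to 19.02 TPM in Ctrl libraries (log2 fold change -0.26, adjusted p = 0.0595). TAPBP, which holds class I chains to the transporter, ranged from 75.2 to 91.7 TPM in TMEM216 libraries and from 92.4 to 99.2 TPM in Ctrl libraries (-0.16, adjusted p = 0.12). For both genes the TMEM216 and Ctrl libraries were separated, by a narrow gap. TAP2 ranged from 56.5 to 73.4 TPM in TMEM216 libraries and from 62.9 to 89.0 TPM in Ctrl libraries, which overlapped (-0.23, adjusted p = 0.157). Its lowest values in the TMEM216 and Ctrl+IGF1 groups were those of the low-scoring libraries. By GENCODE v29, PSMB9 overlaps PSMB8 and TAP1 on the opposite strand, and the sources used here do not say whether strand was kept, so reads of these 3 genes could be shared.

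Ratios of partner subunits, chosen after the values were seen and given without a test, do not depend on a library's scaling. TAP1 over TAP2 ranged from 0.285 to 0.407 in TMEM216 libraries and from 0.421 to 0.506 in Ctrl libraries. PSMB8 over PSMB5, the constitutive proteasome subunit it replaces, averaged 0.151 ± 0.0190 in TMEM216 libraries and 0.195 ± 0.0134 in Ctrl libraries (SD, n = 6). The transporter ratio thus separated the populations, while the proteasome ratio overlapped at 0.184 in TMEM216 libraries and 0.176 in Ctrl libraries. PSMB9 over PSMB6 averaged 0.0348 ± 0.00314 in TMEM216 libraries and 0.0425 ± 0.00431 in Ctrl libraries.

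Among the class I chains, 1 of 5 fell, where 3.21% of all features did, and the light chain B2M did not pass. HLA-E had 193, 191 and 201 TPM in TMEM216+IGF1 libraries and 182, 192 and 186 TPM in TMEM216 libraries. It had 236, 251 and 220 TPM in Ctrl+IGF1 libraries and 267, 259 and 267 TPM in Ctrl libraries. The populations did not overlap, and the spread within a group was small next to the difference. HLA-E fell, by a log2 fold change of -0.39 ± 0.04 (SE, adjusted p = 0.000558), and the call held in all 20 alternatives. B2M, its partner, averaged 1226 ± 41.3 TPM in TMEM216 libraries and 1189 ± 64.0 TPM in Ctrl libraries (SD, n = 6, log2 fold change 0.05, adjusted p = 0.667). HLA-E over B2M ranged from 0.150 to 0.173 in TMEM216 libraries and from 0.189 to 0.231 in Ctrl libraries. HLA-B averaged 131 ± 21.4 TPM in TMEM216 libraries and 164 ± 12.3 TPM in Ctrl libraries, with the lowest value, 93.4 TPM, in TMEM216+IGF1 replicate 2 (-0.34, adjusted p = 0.0911). HLA-C averaged 74.3 ± 6.16 TPM in TMEM216 libraries and 84.6 ± 6.67 TPM in Ctrl libraries (-0.18, adjusted p = 0.128). Neither passed. HLA-F, a class I chain of low level, averaged 10.9 ± 1.69 TPM in TMEM216 libraries and 10.4 ± 1.42 TPM in Ctrl libraries (0.06, adjusted p = 0.815).

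Of the 4 transcription factors, IRF9 fell, where 3.21% of all features did. IRF9 is the DNA-binding subunit of the complex it forms with STAT2. It had 4.75, 5.23 and 4.34 TPM in TMEM216+IGF1 libraries and 5.17, 5.65 and 5.78 TPM in TMEM216 libraries. It had 7.20, 7.59 and 6.70 TPM in Ctrl+IGF1 libraries and 7.64, 5.94 and 10.7 TPM in Ctrl libraries. The populations were separated by a narrow gap, and Ctrl replicate 3 stood highest. IRF9 fell, by a log2 fold change of -0.47 ± 0.11 (SE, adjusted p = 0.0328). This call was lost on leaving out any 1 library except Ctrl replicate 2 or Ctrl+IGF1 replicate 3, with values as near to 0 as -0.37 and adjusted p up to 0.0785. It was also lost without TMEM216 replicate 1 and Ctrl+IGF1 replicate 3 together. STAT2 averaged 30.3 ± 2.94 TPM in TMEM216 libraries and 36.5 ± 6.48 TPM in Ctrl libraries, where replicate 3 of Ctrl+IGF1 had the lowest value, 23.7 TPM (-0.24, adjusted p = 0.284). IRF7, which drives interferon gene transcription, averaged 12.5 ± 1.27 TPM in TMEM216 libraries and 14.5 ± 1.45 TPM in Ctrl libraries (-0.21, adjusted p = 0.201). IRF1 averaged 23.98 ± 4.59 TPM in TMEM216 libraries and 23.2 ± 1.33 TPM in Ctrl libraries (0.03, adjusted p = 0.924).

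The IFIT and OAS families, which bind or sense viral RNA, held the 1 member that rose without further scaling. Of 8 tested members, 1 rose, 0 fell and 2 had fitted values below 0, with a median log2 fold change of 0.07. Of all features 2% rose, 3.21% fell and 50.1% were below 0. OASL, an OAS-like protein without synthetase activity that promotes RIG-I signalling, had 59.7, 50.5 and 53.5 TPM in TMEM216+IGF1 libraries and 42.8, 37.0 and 37.6 TPM in TMEM216 libraries. It had 40.4, 40.2 and 41.5 TPM in Ctrl+IGF1 libraries and 34.7, 29.1 and 26.3 TPM in Ctrl libraries. The 4 group means were highest in TMEM216+IGF1 and lowest in Ctrl, while the TMEM216 and Ctrl+IGF1 libraries overlapped. OASL rose by a log2 fold change of 0.39 ± 0.07 (SE, adjusted p = 0.0097), in all 20 alternatives. IFIT1, which binds viral RNA lacking cap methylation, averaged 35.98 ± 3.74 TPM in TMEM216 libraries and 31.7 ± 2.83 TPM in Ctrl libraries and did not pass (0.18, adjusted p = 0.0853). The remaining members of these families ranged from -0.06 for OAS3 to 0.10 for IFIT5.

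The remaining roles held 2 further calls, both of them losses at the edge of the threshold, where 3.21% of all features fell. BST2, which tethers budding virions to the cell surface, had 23.3, 23.9 and 21.4 TPM in TMEM216+IGF1 libraries and 18.3, 19.3 and 19.3 TPM in TMEM216 libraries. It had 21.7, 25.6 and 25.9 TPM in Ctrl+IGF1 libraries and 25.4, 25.1 and 24.9 TPM in Ctrl libraries. The populations were separate without IGF1 and overlapped with it, and BST2 fell by 0.24 ± 0.06 on the log2 scale (SE, adjusted p = 0.0423). That call was lost on leaving out any 1 library except Ctrl+IGF1 replicate 1, with adjusted p up to 0.103 and values as near to 0 as -0.22. It was also lost under quantile normalization (adjusted p = 0.0508) and without both low-scoring libraries (adjusted p = 0.0656). XAF1, a proapoptotic antagonist of XIAP, had 3.67, 2.46 and 3.67 TPM in TMEM216+IGF1 libraries and 3.99, 2.41 and 3.03 TPM in TMEM216 libraries. It had 3.72, 5.09 and 4.48 TPM in Ctrl+IGF1 libraries and 4.60, 6.72 and 7.24 TPM in Ctrl libraries. Its populations overlapped slightly, and XAF1 fell by 0.57 ± 0.14 on the log2 scale (SE, adjusted p = 0.0328). Its call held only on leaving out Ctrl replicate 1, Ctrl+IGF1 replicate 1, TMEM216 replicate 1 or TMEM216+IGF1 replicate 3 among single libraries, with adjusted p up to 0.0873 and values as near to 0 as -0.50.

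**Figure D3:**
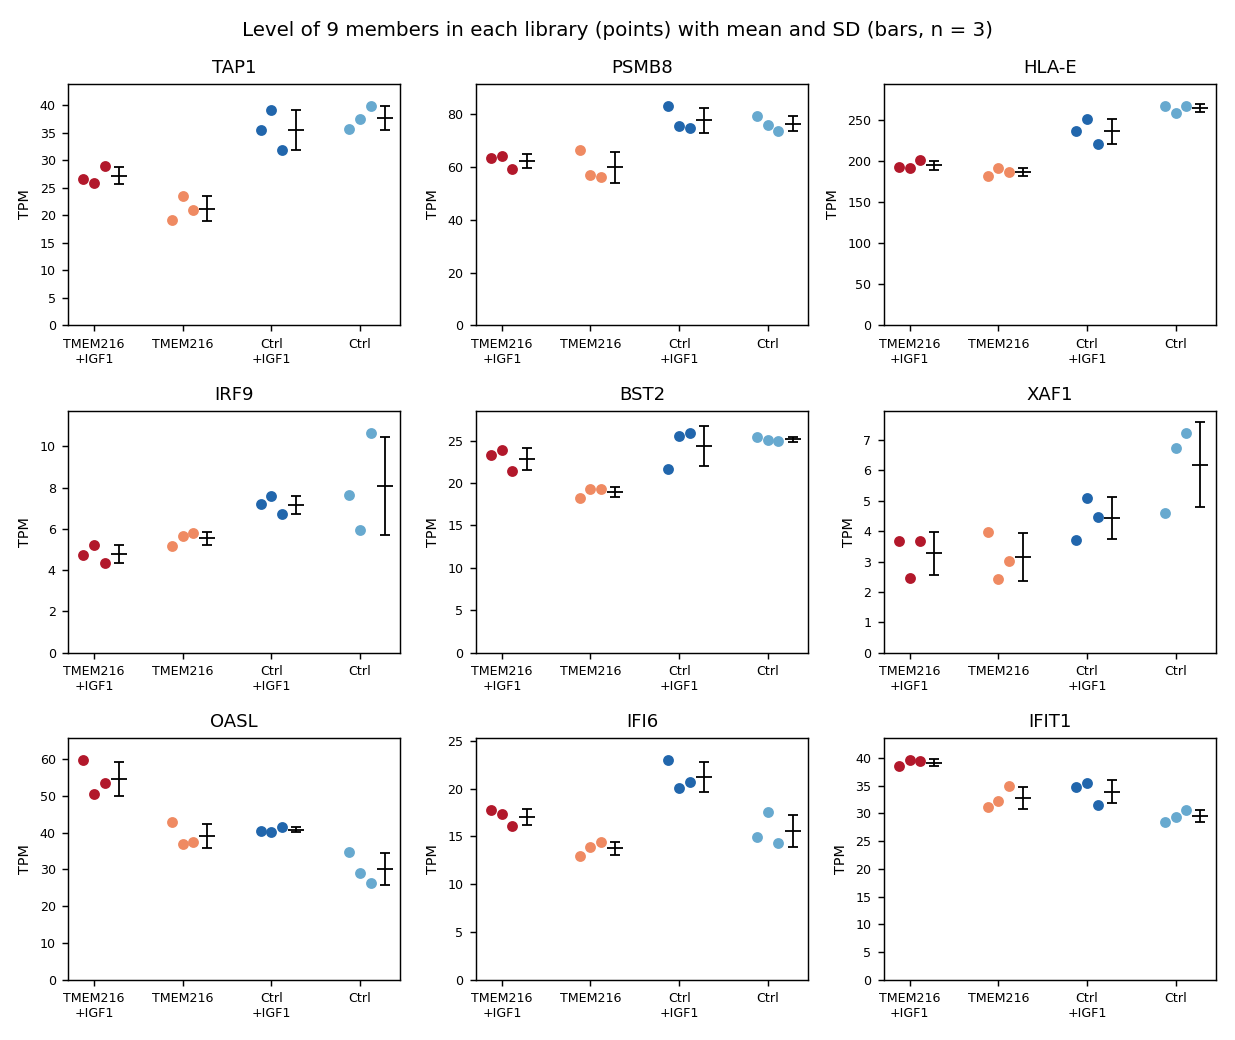
TPM of 9 members in each of the 12 libraries (points), with the mean and SD of each group of 3 (bars). TAP1, PSMB8 and HLA-E lie lower in every TMEM216 library than in any Ctrl library, while OASL is highest in TMEM216+IGF1 at 54.6 TPM and lowest in Ctrl at 30.0 TPM.

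The ISG15 system showed no member past the threshold, against 5.22% of all features. ISG15 itself averaged 211 ± 38.1 TPM in TMEM216 libraries and 212 ± 46.4 TPM in Ctrl libraries (log2 fold change -0.0020, adjusted p = 0.995). UBE2L6, the enzyme that conjugates ISG15 to target proteins, ranged from 27.0 to 36.4 TPM in TMEM216 libraries and from 37.3 to 41.7 TPM in Ctrl libraries. Those ranges did not overlap, yet UBE2L6 did not pass (-0.27, adjusted p = 0.057). Its deconjugating partner USP18 averaged 2.81 ± 0.573 TPM in TMEM216 libraries and 2.75 ± 0.430 TPM in Ctrl libraries. The ligase HERC5 and its relative HERC6 had log2 fold changes of 0.05 and 0.10. The PARP9 group, with DTX3L and PARP14, ranged from -0.04 to 0.09. Of the sensors and restriction factors other than BST2, log2 fold changes ranged from -0.16 for MX1 to 0.24 for IFIH1, the RNA sensor MDA5. Among the IFI genes, IFI6 (-0.23, adjusted p = 0.0751), IFI35 (-0.19, adjusted p = 0.0887) and IFI27 (-0.47, adjusted p = 0.108) were below 0. IFI44 (0.17, adjusted p = 0.122) and IFI44L (0.29, adjusted p = 0.26) were above it.

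Members were also listed by whether the promoter window holds ISRE letters. The 24 members with a match had a median log2 fold change, TMEM216 over Ctrl, of 0.0048, and 12 of them were above 0. The 12 members in the table without a match had a median of -0.22, and 2 were above 0. The 8 tested members not in the table had a median of 0.03, and 5 were above 0. Of all features 49.9% were above 0. The ranges overlapped widely, from -0.59 to 0.29 with a match and from -0.57 to 0.10 without one. TAP1, PSMB8 and BST2 carry the element and fell, while IRF9 and XAF1 carry no such letters in this window and fell too. HLA-E, which fell, and OASL, which rose, are not in the promoter table. This is a description of the members, with no test.

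Without IGF1, TAP1 and HLA-E fell in TMEM216 cells, and no other member passed. These were 2 of 44 members (4.55%), against 1.09% of all features in either direction and 0.941% lower, while 0 members and 0.153% of all features rose. At an unadjusted p under 0.05 there were 15 members (34.1%), against 13.2% of all features. Of these, 1 was higher (2.27% of members, 3.17% of all features) and 14 lower (31.8% of members, 10% of all features). TAP1 had a log2 fold change of -0.80 ± 0.10 (SE, adjusted p = 0.00211) and HLA-E one of -0.50 ± 0.06 (SE, adjusted p = 0.00218), and both kept their calls in all 21 alternatives. The next smallest p-values belonged to BST2 (-0.39, adjusted p = 0.0547), PSMB8 (-0.35, adjusted p = 0.0681) and XAF1 (-0.79, adjusted p = 0.0809), which did not pass. TMEM216 libraries lay below Ctrl libraries without overlap for 18 members (40.9%), against 15.5% of all features, and above them for 3 (6.82%), against 6.3%. The 18 included 8 of the 10 class I and peptide supply genes, all but B2M and HLA-F, and the 3 were OASL, IFIT1 and IFI44. Fitted values were above 0 for 13 members (29.5%), against 38% of all features. The member median was -0.15 and that of all features was -0.05. Under quantile scaling these were -0.09 and 0.0039, with 18 members above 0 (51% of all features). Under median-of-ratios scaling they were -0.10 and 0.00013, with 15 members above 0 (50% of all features). Without both low-scoring libraries they were -0.10 and -0.02, with 15 members above 0 (44.3% of all features). Leaving out Ctrl+IGF1 replicate 3, alone or with TMEM216 replicate 1, gave 4 members past the threshold. Over all features 143 passed with every library, 273 without Ctrl+IGF1 replicate 3 and 288 without both.

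With IGF1, 0 of 44 members passed between TMEM216+IGF1 and Ctrl+IGF1, against 1.61% of all features, 0.918% higher and 0.696% lower. At an unadjusted p under 0.05 limma gave 14 members (31.8%), against 15.8% of all features. Of these, 7 were higher (15.9% of members, 9.98% of all features) and 7 lower (15.9% of members, 5.85% of all features). Fitted values were above 0 for 23 members (52.3%), against 60% of all features. They were above 0 for 20 of 44 members under quantile scaling (51.6% of all features) and for 20 under median-of-ratios scaling (48.9% of all features). Without both low-scoring libraries they were above 0 for 19 members, against 48.5% of all features. The 5 smallest p-values, none passing, were those of HLA-E (-0.27, adjusted p = 0.0573), OASL (0.41, adjusted p = 0.0806), PSMB8 (-0.32, adjusted p = 0.0881), IFIH1 (0.47, adjusted p = 0.0904) and TAP1 (-0.37, adjusted p = 0.101). TMEM216+IGF1 libraries lay below Ctrl+IGF1 libraries without overlap for 10 members (22.7%), against 7.69% of all features, and above them for 8 (18.2%), against 12%. IFIH1, for example, had 11.6, 9.10 and 9.59 TPM in TMEM216+IGF1 libraries, against 7.02, 8.22 and 5.87 TPM in Ctrl+IGF1 libraries. Leaving out Ctrl+IGF1 replicate 2 gave 2 members past the threshold, and leaving out Ctrl+IGF1 replicate 3 or TMEM216 replicate 1 gave 1. Without both low-scoring libraries there were 4. Over all features 211 passed with every library, 462 without Ctrl+IGF1 replicate 2 and 238 without both low-scoring libraries.

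The comparisons with and without IGF1 share no library. The fitted sign was the same in both for 68.2% of the members, against 57.4% of all features. It was below 0 in both for 19 members and above 0 in both for 11. A further 12 were below 0 without IGF1 and above 0 with it, and 2 the reverse. All 5 peptide supply genes and HLA-B, HLA-C and HLA-E were below 0 in both.

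**Figure D4:**
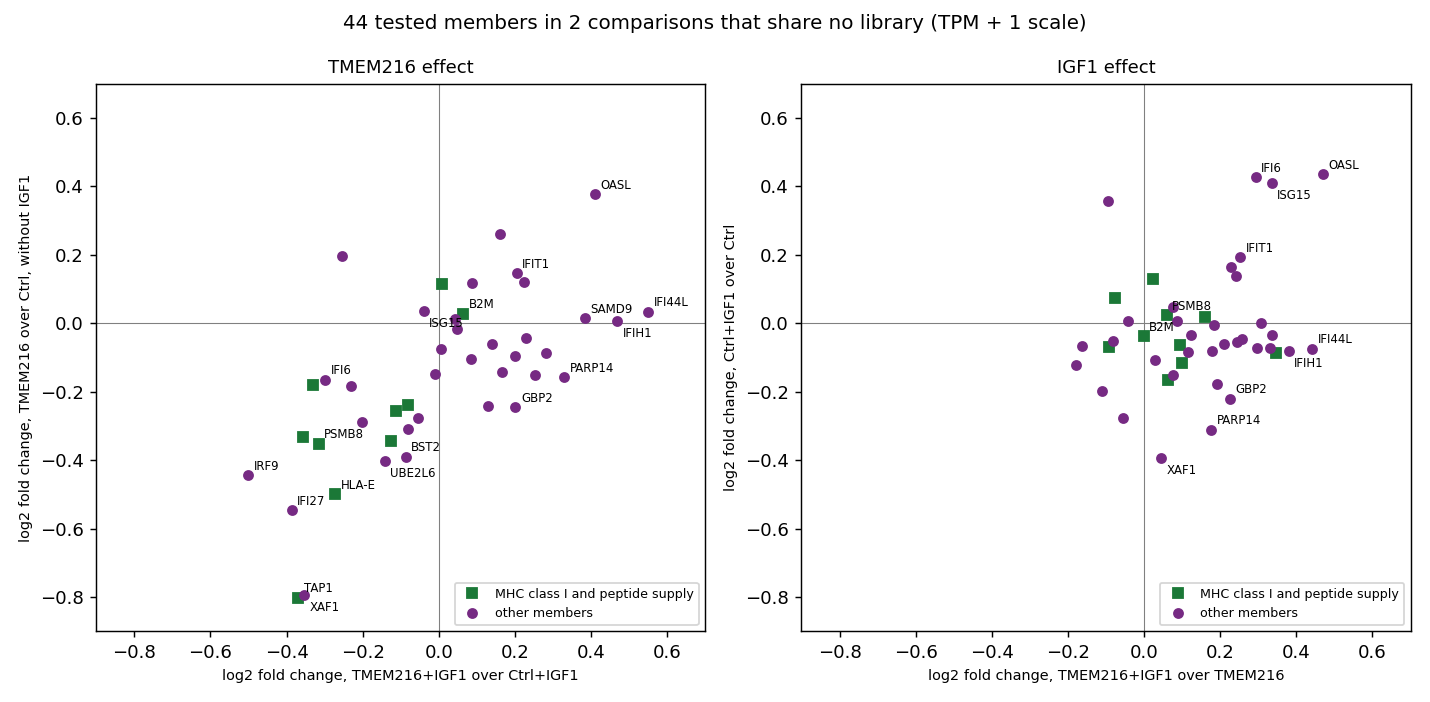
Log2 fold changes of TPM + 1 for the 44 tested members in pairs of comparisons that share no library: the TMEM216 effect (left) with IGF1 on the horizontal and without IGF1 on the vertical axis, and the IGF1 effect (right) in TMEM216 cells on the horizontal and in Ctrl cells on the vertical axis. Squares are class I and peptide supply genes; TAP1 lies lowest on the left at -0.80 without IGF1, and OASL lies at the upper right of both panels.

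No member passed the threshold for IGF1 in either population. In TMEM216 cells, 0 of 44 members passed between TMEM216+IGF1 and TMEM216, against 0.0153% of all features. At an unadjusted p under 0.05 limma gave 12 members (27.3%), against 4.77% of all features. All 12 were higher (3.08% of all features) and 0 lower (1.7% of all features). The smallest p-values were those of OASL (0.47, adjusted p = 0.425), TAP1 (0.35, adjusted p = 0.752), IFIT1 (0.25, adjusted p = 0.784), IFIH1 (0.38, adjusted p = 0.844) and IFI6 (0.29, adjusted p = 0.844). TMEM216+IGF1 libraries lay above TMEM216 libraries without overlap for 16 members (36.4%), against 6.56% of all features, and below them for 0, against 3.69%. IFIT1, for instance, had 38.5, 39.7 and 39.4 TPM in TMEM216+IGF1 libraries, against 31.1, 32.3 and 34.9 TPM in TMEM216 libraries. IFI44, an interferon-induced protein, had 137, 133 and 130 TPM in TMEM216+IGF1 libraries, against 110, 117 and 111 TPM in TMEM216 libraries. Fitted values were above 0 for 34 members (77.3%), against 56.1% of all features. They were above 0 for 34 under quantile scaling (50.1% of all features) and 34 under median-of-ratios scaling (49.5% of all features). The number was 31 without TMEM216 replicate 1 and Ctrl+IGF1 replicate 3 (49.1% of all features). The member median was 0.14, and 0.12 without those libraries, where the median of all features was 0.02 and -0.0027.

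In Ctrl cells, 0 of 44 members passed between Ctrl+IGF1 and Ctrl, against 0.0306% of all features. An unadjusted p under 0.05 in limma was found for 6 members (13.6%), against 6.89% of all features. Of these, 4 were higher (9.09% of members, 1.22% of all features) and 2 lower (4.55% of members, 5.67% of all features). The smallest p-values were those of IFI6 (0.43, adjusted p = 0.506), OASL (0.44, adjusted p = 0.564), ISG15 (0.41, adjusted p = 0.673), HLA-E (-0.16, adjusted p = 0.673) and IFIT1 (0.19, adjusted p = 0.673). IFI6, a mitochondrial and endoplasmic reticulum protein that limits apoptosis, had 23.0, 20.01 and 20.7 TPM in Ctrl+IGF1 libraries, against 14.9, 17.5 and 14.3 TPM in Ctrl libraries. ISG15 had 234, 201 and 294 TPM in Ctrl+IGF1 libraries, against 199, 173 and 171 TPM in Ctrl libraries. Neither pair of groups overlapped, though ISG15 in Ctrl+IGF1 varied widely. Without Ctrl+IGF1 replicate 3 the ISG15 value was 0.27, and under median-of-ratios scaling the HLA-E value was -0.08. Ctrl+IGF1 libraries lay above Ctrl libraries without overlap for 5 members (11.4%), against 2.72% of all features, and below them for 5 (11.4%), against 11.8%. Fitted values were above 0 for 15 members here (34.1%), against 27.2% of all features. They were above 0 for 27 of 44 members under quantile scaling (47.5% of all features) and 28 under median-of-ratios scaling (48% of all features). Without both low-scoring libraries the number was 23 (41.2% of all features).

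Averaged over the populations, 0 of 44 members passed for IGF1, against 0.0536% of all features. An unadjusted p under 0.05 in limma was found for 5 members (11.4%), against 5.88% of all features. All 5 were higher, against 1.68% of all features. They were OASL (0.45, adjusted p = 0.0738), IFI6 (0.36, adjusted p = 0.136), IFIT1 (0.22, adjusted p = 0.357), ISG15 (0.37, adjusted p = 0.589) and IFI44 (0.19, adjusted p = 0.628). Leaving out Ctrl replicate 1 took OASL past the threshold (adjusted p = 0.0359). All 5 were above 0 in both populations, but they were picked by that average, which favours such agreement. Over the 44 members the fitted IGF1 sign was the same in both populations for 43.2%, against 44.7% of all features.

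The interaction asks whether the TMEM216 effect differed with IGF1, and 0 of 44 members passed, against 0.0153% of all features. At an unadjusted p under 0.05 limma gave 7 members (15.9%), against 5.38% of all features, and all 7 were higher, against 4.47%. TAP1 (0.43), GBP2, an interferon-induced GTPase (0.45), IFIH1 (0.46), HLA-E (0.23) and BST2 (0.30) had the smallest p-values, each with an adjusted p of 0.754. Under median-of-ratios scaling HLA-E was 0.12, and under quantile scaling BST2 was 0.19. The smaller TMEM216 difference of TAP1 with IGF1 than without was therefore not shown to differ. The median of all features was 0.11 for the interaction and 0.0052 after median-of-ratios scaling, which moved the member median to 0.06, against 0.16 unscaled. Without both low-scoring libraries the member median was 0.07, that of all features 0.02, and TAP1 was 0.29.

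Other genes of these pathways were read from lists of ligands and receptors, JAK-STAT signalling, nucleic acid sensing, interferon-stimulated genes and class I processing. All 9 interferon ligand genes on the list used here stood at 0 in every library. Ligand genes outside that list were not looked up. Averaged over IGF1, 0 of 6 tested receptor genes passed between TMEM216 and Ctrl libraries, against 5.22% of all features. IFNAR1, a type I interferon receptor chain, averaged 20.7 ± 3.03 TPM in TMEM216 libraries and 21.5 ± 2.01 TPM in Ctrl libraries, and IFNGR1, an interferon gamma receptor chain, averaged 47.8 ± 5.65 TPM in TMEM216 libraries and 48.1 ± 4.34 TPM in Ctrl libraries. Both were named after their values were seen. Of 19 JAK-STAT genes 1 rose, where 2% of all features did, and it was SOCS3, a feedback inhibitor of JAK signalling. SOCS3 averaged 48.6 ± 3.25 TPM in TMEM216 libraries and 38.5 ± 1.31 TPM in Ctrl libraries, without overlap (0.33, adjusted p = 0.00645). That call held in all 20 alternatives.

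Of 17 sensing genes 1 rose, where 2% of all features did, and it was AIM2, a cytosolic DNA sensor (0.38, adjusted p = 0.0213). AIM2 lost its call on leaving out Ctrl replicate 1, Ctrl replicate 3, TMEM216 replicate 2, TMEM216+IGF1 replicate 2 or TMEM216+IGF1 replicate 3, with adjusted p up to 0.0628. Of 56 other interferon-stimulated genes 1 rose and 4 fell, where 2% and 3.21% of all features did. LY6E, a surface protein that restricts coronavirus entry, rose (0.36, adjusted p = 0.0164), and did not pass without Ctrl replicate 2 (0.30, adjusted p = 0.0518). TRIM21, a cytosolic antibody receptor, averaged 17.9 ± 0.845 TPM in TMEM216 libraries and 22.0 ± 1.19 TPM in Ctrl libraries and fell (-0.28, adjusted p = 0.0156), as did APOL2 (-0.35, adjusted p = 0.0216), WARS1, the tryptophanyl-tRNA synthetase (-0.44, adjusted p = 0.0276), and SHFL, an inhibitor of ribosomal frameshifting (-0.36, adjusted p = 0.037). SHFL was named after its values were seen. Each of these 4 lost its call without some single library. For TRIM21 it was Ctrl replicate 3 or TMEM216+IGF1 replicate 1, with adjusted p up to 0.0543. The number of such libraries was 4 for APOL2, 7 for WARS1 and 10 for SHFL, with adjusted p up to 0.0632, 0.0716 and 0.102.

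Of 24 other class I processing genes and ligands, 1 rose and 3 fell between TMEM216 and Ctrl libraries, where 2% and 3.21% of all features did. CALR, a chaperone of the peptide-loading complex, rose and averaged 1037 ± 86.7 TPM in TMEM216 libraries and 878 ± 49.2 TPM in Ctrl libraries (0.24, adjusted p = 0.0145), though not past the threshold under quantile normalization (adjusted p = 0.0727). FCGRT, the heavy chain of the neonatal Fc receptor and a class I relative that pairs with B2M, fell (-0.49, adjusted p = 0.00592). It averaged 13.8 ± 2.39 TPM in TMEM216 libraries and 19.6 ± 1.85 TPM in Ctrl libraries, without overlap. MICB (-0.29, adjusted p = 0.0279) and RAET1L (-0.59, adjusted p = 0.0256), ligands of the NK receptor NKG2D, fell too. MICB lost its call on leaving out any of 5 single libraries and RAET1L any of 4, with adjusted p up to 0.0768 and 0.0664. With IGF1, 0.918% of all features rose and 0.696% fell. There SOCS3 (0.36, adjusted p = 0.0469) and CALR (0.33, adjusted p = 0.0323) rose and FCGRT fell (-0.56, adjusted p = 0.0434). Those calls were lost on leaving out any of 8, 9 and 9 single libraries, with adjusted p up to 0.18, 0.132 and 0.172.

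The class I genes share a position as well as a function, and fitted values of their neighbours were mostly below 0 too. Of the 44 tested members, 9 lie on chromosome 6 within the MHC, from HLA-F to TAPBP in RefSeq (GRCh38.p14) gene order. The look at this region was made after the values were seen and has no test. Averaged over IGF1, 8 of the 9 members had a TMEM216 to Ctrl log2 fold change below 0, with a median of -0.26. Of the 93 other tested genes between HLA-F and TAPBP, 79 were below 0 (84.9%), with a median of -0.16. Across all features 50.1% were below 0. Of the 100 tested genes before HLA-F 71 were below 0, with a median of -0.08, and of the 100 after TAPBP 91 were, with a median of -0.14. In the rest of chromosome 6, 350 genes, 45.1% were below 0, with a median of 0.02. The 35 tested members on other chromosomes had a median of 0.01, and 17 were below 0.

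Within each IGF1 condition the genes of the span were also mostly below 0. Among those 93 other genes of the span, 70 were below 0 between TMEM216+IGF1 and Ctrl+IGF1 and 79 between TMEM216 and Ctrl without IGF1, with medians of -0.14 and -0.17. Across all features 40% were below 0 with IGF1, with a median of 0.05, and 62% were without it, with a median of -0.05. Under quantile normalization the averaged values were 79 of 93 and a median of -0.16. What share of the member differences lies in this neighbourhood was not tested. MICB lies in the same region.

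**Figure D5:**
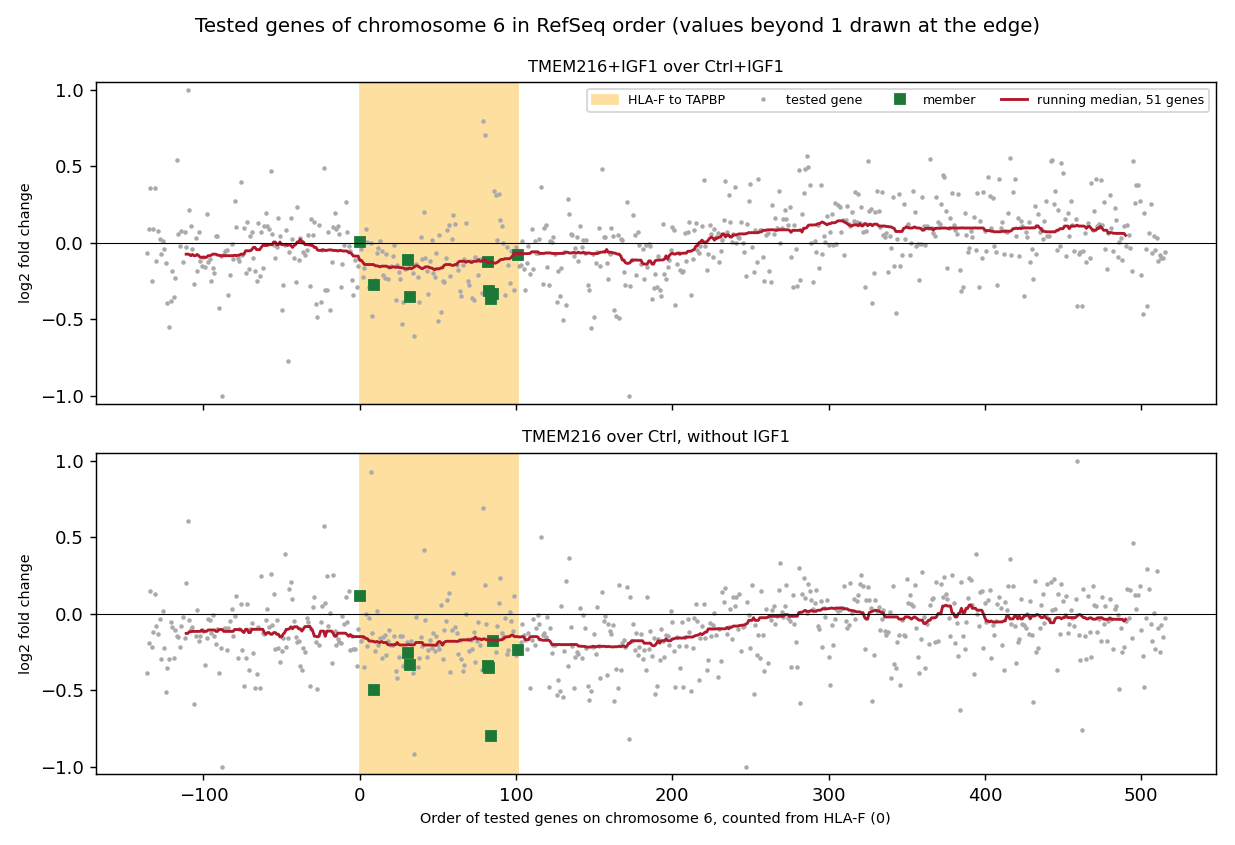
Log2 fold change of TPM + 1 of the tested genes of chromosome 6 in RefSeq order, counted from HLA-F, with IGF1 (top, TMEM216+IGF1 over Ctrl+IGF1) and without it (bottom, TMEM216 over Ctrl). Squares are the 9 members, the shaded band runs from HLA-F to TAPBP and the line is a running median over 51 genes, which reaches -0.18 inside the band with IGF1 and -0.22 beyond TAPBP, outside the band, without it.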

How the data were processed

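RNA of 12 libraries was prepared with an Illumina TruSeq RNA kit, per the labels' protocols. The authors deposited TPM values, one per feature and library. HISAT2, StringTie and RSEM were used per the submitters' processing notes. Tool versions, build and strandedness: not given in the sources used here.

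TPM was transformed to log2(TPM + 1) without further scaling. Features with at least 1 TPM in 3 libraries or more were kept, 13071 of 21574. The 4 groups were fitted together with limma 3.58.1 in R 4.3.3, with variances moderated along a trend in mean level, 2-sided, and Benjamini-Hochberg adjustment over all tested features at 0.05. The procedure was tested on simulated data. Python 3.11.15 with pandas 2.3.3 and matplotlib 3.10.9 made summaries and plots. Gene overlaps came from GENCODE v29 and promoters and gene order from RefSeq GRCh38.p14. In GENCODE v29, 14 of the 44 tested members overlap another tested gene. On the same strand HLA-B and HLA-C overlap each other, IRF9 overlaps AL136295.5 and TAP2 overlaps AL669918.1. Reads of these genes could be shared even if strand was kept.

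In each comparison every member past the threshold was named, or the 5 with the smallest p where fewer than 5 passed. The 10 members highest in mean TPM, any member below the filter, and up to 4 genes past the threshold per further list were named too. Further members stand with their role, and ratios, IFNAR1, IFNGR1 and chromosome 6 were chosen after values were seen. The members and lists were chosen with earlier results of these data known. Alternatives changed the pseudocount to 0.1 and the minimum to 5 TPM or none, used quantile normalization or median-of-ratios scaling, dropped the trend, fitted only the groups being compared, added replicate number as a block, or left out each library in turn. Leaving out TMEM216 replicate 1 and Ctrl+IGF1 replicate 3 together was added after the data were seen.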

Additional observations from a re-analysis of the deposited data

Results flagged for a closer look

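For PARP14, a mono-ADP-ribosyltransferase, and GBP2, all libraries with IGF1 lay above those without it in the TMEM216 population. In the Ctrl population they lay below them, though no IGF1 difference of either gene passed. Of all features, 6.56% lay above without overlap in TMEM216 cells and 11.8% below in Ctrl cells. The share of all features with both patterns was not computed, so these members cannot be set against it. PARP14 had 10.0, 11.0 and 10.3 TPM in TMEM216+IGF1 libraries, against 7.84, 9.65 and 9.97 TPM in TMEM216 libraries. It had 9.51, 8.92 and 6.21 TPM in Ctrl+IGF1 libraries, against 10.4, 10.6 and 9.89 TPM in Ctrl libraries. The libraries with and without IGF1 did not overlap in either population. The interaction was 0.49 on the log2 scale (adjusted p = 0.754 from limma) and did not pass. GBP2 had 7.14, 9.04 and 7.96 TPM in TMEM216+IGF1 libraries, against 6.92, 6.91 and 6.29 TPM in TMEM216 libraries. It had 7.21, 6.89 and 6.44 TPM in Ctrl+IGF1 libraries, against 8.42, 7.79 and 8.19 TPM in Ctrl libraries. Its interaction was 0.45 (adjusted p = 0.754 from limma) and did not pass either. The lowest PARP14 values in the Ctrl+IGF1 and TMEM216 groups came from the libraries that scored lowest on the first principal component, Ctrl+IGF1 replicate 3 and TMEM216 replicate 1, and without both the PARP14 interaction was 0.22, against 0.43 for GBP2.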

How the results depend on the processing

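Of the 51 results on genes named by the rule (a gene in a comparison), 0 reversed direction in any alternative. Over all 44 members, signs did change under either scaling or without both low-scoring libraries, for 3 members in the averaged TMEM216 comparison, 8 without IGF1, 7 with it (HLA-F among them), 20 for IGF1 in Ctrl, 7 for IGF1 in TMEM216 and 15 for the interaction. The count of members past the threshold between TMEM216 and Ctrl without IGF1 was 2 and ranged from 2 to 4 on leaving out single libraries, with 4 without TMEM216 replicate 1 and Ctrl+IGF1 replicate 3 together. Between TMEM216+IGF1 and Ctrl+IGF1 it was 0, and 1 with no filter, 2 under quantile normalization, 2 under median-of-ratios scaling, 0 to 2 on leaving out single libraries and 4 without both. Averaged over IGF1 it was 7, and 4 to 7 on leaving out single libraries and 8 without both. It was 5 with no filter, 9 under quantile normalization and 10 under median-of-ratios scaling. Under either scaling 3 of these members were higher. For IGF1 averaged over populations it was 0, and 0 to 1 on leaving out single libraries. The cause was not tested.

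With the replicate number as a block, 4 members passed in the averaged TMEM216 comparison, and the calls of BST2, IRF9 and XAF1 were lost. Deviations of same-numbered libraries correlated from -0.286 to 0.165, over 0.1 in 4 of 18 pairs. Other pairs correlated from -0.274 to 0.278, over 0.1 in 6 of 36 pairs. Whether same-numbered libraries share more than a number cannot be told from these values.

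Calls over all features varied more. Between TMEM216 and Ctrl without IGF1 there were 143, and 49 when only the libraries compared were fitted, 77 with the block, 43 to 273 on leaving out single libraries and 288 without both libraries. With IGF1 there were 211, and 49 when only the libraries compared were fitted, 140 with the block and 84 to 462 on leaving out single libraries. The number with IGF1 was 294 under quantile normalization, 275 under median-of-ratios scaling and 238 without both libraries. The averaged comparison gave 682, and 392 to 906 on leaving out single libraries and 1061 without both. It gave 959 under quantile normalization and 946 under median-of-ratios scaling. The IGF1 comparisons and the IGF1 average gave 11 or fewer in each setting. The share of calls that were higher was 14% without IGF1 and 38.4% averaged, and 32.8% and 48.1% under quantile normalization and 31.2% without IGF1 under median-of-ratios scaling. TPM holds no depth, so low members such as OAS1, TRIM22, IFI44L and MX2 have no counting interval.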
